A study of Mus musculus with 8 samples.

Results

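The collagen genes were taken from a count table of mouse ventricles at embryonic day (E) 15.5 as every gene whose symbol has the form *Col*, a type number, *a* and a chain number. The table held 44 such symbols, and 40 had at least 10 counts in at least 4 of the 8 libraries. They were sorted by the structure of the proteins they encode into 11 fibrillar, 8 basement membrane and 21 other collagen genes. *Col19a1*, *Col6a4*, *Col10a1* and *Col6a5* reached at most 3, 7, 3 and 8.07 counts in a library and were not tested. Of the 40, 37 had 10 or more counts in all 8 libraries, and the other 3 were *Col9a1*, *Col20a1* and *Col28a1*. Only *Col28a1* passed through 1 group alone, the WT group.

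Poly(A) RNA was sequenced from 4 *Nrg1GOF* and 4 wild-type (WT) samples, with 1 ventricle sample per replicate. *Nrg1GOF* embryos carry *Nrg1* at the *Rosa26* locus together with a Cre driver, which the title of the series names Nkx2.5-Cre and the genotype field writes Nkx5.5-Cre. The driver is active in the cardiac *Nkx2.5* lineage, which includes cardiomyocytes, and *Nrg1* encodes neuregulin-1, which is secreted and binds ErbB receptors. The controls are labelled WT with no allele named, and no litter, sex or batch is given for any library.

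Library totals ranged from 8038641 counts in *Nrg1GOF* library 4 to 26786039. *Nrg1* lay between 59.8 and 63.7 counts-per-million (CPM) in *Nrg1GOF* and between 3.07 and 4.46 CPM in WT, so every library carried the *Nrg1* level of its label. WT libraries 1 and 2 resembled each other, as did WT libraries 3 and 4, and this division ran through the collagen genes: 30 of the 40 were higher in both of the first pair than in both of the second, against 30.5% of all 15562 genes tested. For 2 of the genes that rose, *Col9a1* and *Col14a1*, the ratio of the WT pairs was at least as large as the fold between genotypes, and for *Col5a1* (1.31 against 1.36), *Col4a6* (1.20 against 1.23) and *Col8a1* (1.94 against 2.02), among others, it was close to it. The mean log2 level of 4 Y-linked genes split along the same line (4.23 and 4.32 against 5.47 and 5.43) and was lowest in *Nrg1GOF* library 3 (3.65). With that mean as a covariate 26 collagen genes were called higher (14.9% of all genes).

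Collagens are secreted or membrane-anchored proteins built of chains that wind around each other along a repeat with glycine at regular intervals. Fibrillar collagens assemble into the banded fibres that carry tension between cells. Type IV collagen forms the open network of basement membranes, the sheets under endothelium, around cardiomyocytes and beneath the epicardium. Fibril-associated collagens sit on the surface of the fibres, and others form beaded filaments, hexagonal lattices or proteins that span the cell membrane. In the embryonic heart the fibrillar collagens are made mainly by fibroblasts of epicardial and endocardial origin and by the cells of the valves.

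The share of all counts that fell on collagen genes was 1.23% to 1.45% in *Nrg1GOF* libraries and 0.772% to 0.951% in WT libraries. In the comparison of genotypes by the quasi-likelihood test of edgeR, with p values adjusted over all genes tested, 25 of the 40 collagen genes rose in *Nrg1GOF*, compared with 15.8% of all genes tested. *Col28a1* was called lower, as were 12.6% of all genes, but it had passed the count filter through WT alone and is not counted as a fall here. The number that rose was 10 (5.35% of all genes) with the mean level of 5 atrial genes as a covariate, and 2 (1.84% of all genes), *Col13a1* and *Col23a1*, with that of 8 fibroblast and epicardial markers. With the latter covariate the log2 fold changes of *Col4a6*, *Col5a1*, *Col6a3*, *Col8a1*, *Col9a1*, *Col9a3* and *Col14a1*, all of which rose without it, were negative. The median log2 fold change was 0.46 over the collagen genes and −0.01 over all genes. All 4 *Nrg1GOF* libraries lay above all 4 WT libraries for 23 members (16.5% of all genes). A log2 rise of 1 or more was reached by 8 members, all in the group of other collagens, compared with 3.55% of all genes. These libraries are bulk tissue, in which a change in the number of cells of a type and a change in RNA per cell cannot be told apart.

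**Figure D1:**
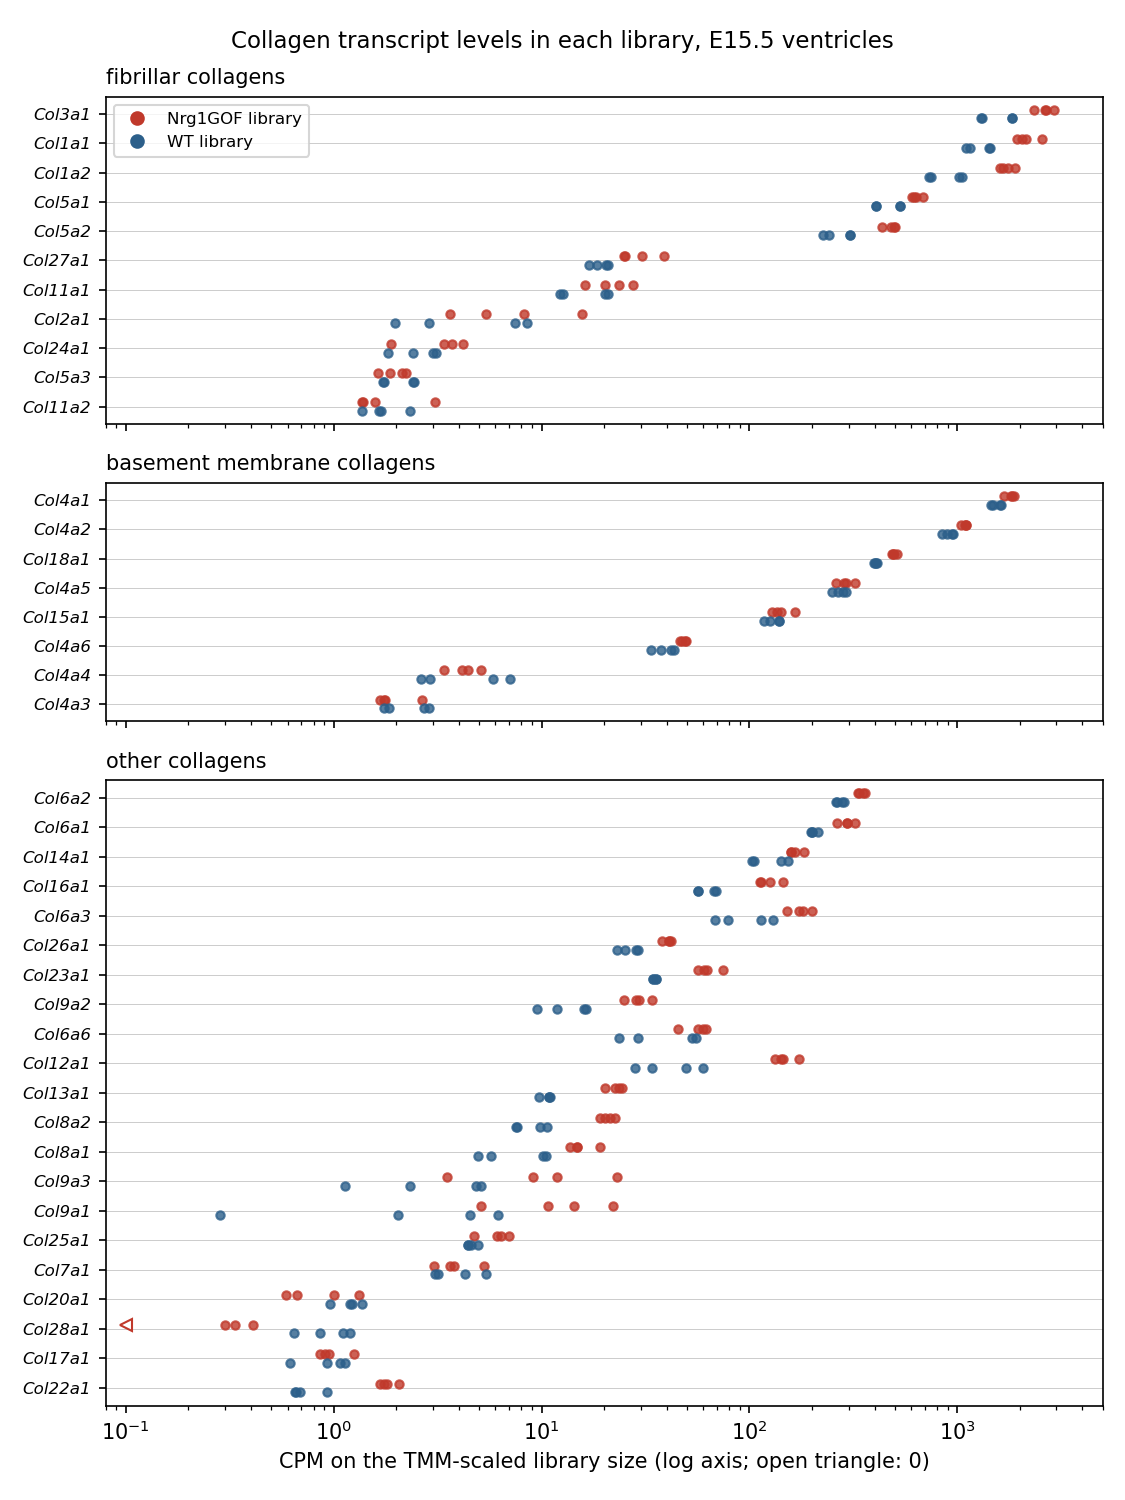
Level of each of the 40 collagen genes in each library, in CPM on a log axis, with red points for the 4 *Nrg1GOF* and blue points for the 4 WT libraries; genes are ordered within each class by their WT level per kilobase, and the open triangle marks the *Nrg1GOF* library with 0 counts of *Col28a1*. Red points lie to the right of blue ones without overlap for 23 genes, among them *Col1a1*, *Col1a2*, *Col3a1*, *Col12a1* and *Col13a1*.

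The sequence before the start site was read for members that results below turn on. RefSeq windows (GRCm38.p6) of the 250 bases before the start site were found for 31 of the 40 genes, and 3 short promoter motifs, none of which contains another, were searched in them on both strands. They were CCAAT, the TATA box with the letters TATAAA and the GC box core GGGCGG. The GC box core was present, in any window of the gene, for 19 of 31 collagen genes (61.3%) and for 35.4% of all gene symbols with a window. It was found for 6 of 8 fibrillar, 4 of 7 basement membrane and 9 of 16 other collagen genes. CCAAT was present for 12 of 31 (38.7%, against 37.5% of all symbols) and TATAAA for 4 of 31 (12.9%, against 14.3%), namely *Col3a1*, *Col11a2*, *Col13a1* and *Col17a1*. The windows below are those of *Col3a1*, the collagen gene with the highest level per kilobase, and of *Col13a1* and *Col23a1*. The rise of these 2 had an adjusted p under 0.05 in every alternative fit, although that of *Col23a1* was under a log2 fold change of 1. They lie at chr1:45311288-45311537 on the plus strand, chr10:61979109-61979358 on the minus strand and chr11:51289670-51289919 on the plus strand, and none overlaps an annotated exon. Capitals mark the motifs, CCGCCC being GGGCGG read on the opposite strand. 
Col3a1: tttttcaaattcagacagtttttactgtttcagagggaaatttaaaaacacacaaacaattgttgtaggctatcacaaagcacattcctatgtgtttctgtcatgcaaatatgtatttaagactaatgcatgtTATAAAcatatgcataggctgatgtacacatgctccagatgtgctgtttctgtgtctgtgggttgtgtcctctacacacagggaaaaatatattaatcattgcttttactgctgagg
Col13a1: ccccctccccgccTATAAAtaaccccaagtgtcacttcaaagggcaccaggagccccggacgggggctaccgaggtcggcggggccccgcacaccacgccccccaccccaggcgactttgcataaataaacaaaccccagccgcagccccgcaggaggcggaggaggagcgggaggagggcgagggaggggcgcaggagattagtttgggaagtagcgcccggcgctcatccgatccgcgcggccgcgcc
Col23a1: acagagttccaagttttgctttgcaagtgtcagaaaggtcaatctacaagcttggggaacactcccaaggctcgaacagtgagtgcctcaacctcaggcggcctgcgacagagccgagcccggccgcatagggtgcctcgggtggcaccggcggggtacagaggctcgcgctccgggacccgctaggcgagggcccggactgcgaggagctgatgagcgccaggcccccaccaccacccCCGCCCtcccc
The *Col3a1* window is poor in G and C (35.2%) and holds a TATAAA, whereas those of *Col13a1* and *Col23a1* are rich in them (68.8% and 66%). A match describes these letters only, and no binding was measured.

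Among the fibrillar collagens, *Col1a1* and *Col1a2* encode the chains of type I collagen, the main fibre of connective tissue. *Col1a1* (chr11:94936224-94953042) stood at 1934, 2138, 2548 and 2057 CPM in *Nrg1GOF* libraries 1 to 4 and at 1435, 1428, 1155 and 1106 CPM in WT libraries 1 to 4. *Col1a2* (chr6:4504814-4541544) stood at 1661, 1749, 1890.4 and 1597 CPM against 1053, 1021, 750.3 and 732 CPM. For both chains every *Nrg1GOF* library was above every WT library, with *Nrg1GOF* library 3 the highest and WT libraries 3 and 4 the lowest. *Col1a1* rose by 0.76 ± 0.11 on the log2 scale (standard error, SE; adjusted p = 0.000905, edgeR) and *Col1a2* by 0.96 ± 0.13 (adjusted p = 0.000486, edgeR). These are 1.69-fold and 1.94-fold.

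*Col3a1* encodes type III collagen, which joins type I in the fibres of distensible tissues. Its level was 2639.5, 2661, 2908 and 2337 CPM in *Nrg1GOF* and 1844, 1842, 1318 and 1304 CPM in WT. It rose by 0.74 ± 0.13 on the log2 scale (SE; adjusted p = 0.00229), and WT libraries 1 and 2 were themselves 1.41-fold above WT libraries 3 and 4. *Col5a1* and *Col5a2* encode type V, which starts new fibrils and limits their width. *Col5a2* lay at 436 to 504 CPM in *Nrg1GOF* and 226 to 306 CPM in WT, and *Col5a1* at 606 to 688 CPM and 405 to 533 CPM. *Col5a2* rose 1.78-fold (adjusted p = 0.000364) and *Col5a1* 1.36-fold (adjusted p = 0.0101). *Col3a1* and *Col5a2* are neighbours on chromosome 1, tail to tail, with 24614 bases between them.

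Of the minor fibrillar chains, *Col27a1* rose from a mean of 19.1 ± 1.83 CPM (SD, n = 4) in WT to 29.9 ± 6.43 CPM (SD, n = 4), by 0.65 ± 0.14 on the log2 scale (SE; adjusted p = 0.00676). It was one of the few whose WT libraries did not divide into pairs, with 16.8 and 20.4 CPM in libraries 1 and 2 and 20.8 and 18.5 CPM in libraries 3 and 4. *Col24a1* had means of 3.30 and 2.58 CPM (adjusted p = 0.295) and *Col5a3*, the third type V chain, 1.96 and 2.08 CPM (adjusted p = 0.938). Both overlapped between the groups. In all, 6 of 11 fibrillar genes rose and none fell (15.8% and 12.6% of all genes), with a median log2 fold change of 0.65. With the atrial covariate 2 fibrillar genes were called (8.65% of all genes), and with the fibroblast and epicardial covariate none (4.23% of all genes).

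Partner chains did not always keep their ratio. Per kilobase of transcript, which allows genes of different length to be set side by side, the ratio of *Col1a1* to *Col1a2* was 1.13 ± 0.0718 in *Nrg1GOF* and 1.31 ± 0.0772 in WT (SD, n = 4 each), and that of *Col5a1* to *Col5a2* was 1.05 ± 0.0509 and 1.37 ± 0.0383. For both pairs all *Nrg1GOF* libraries lay below all WT libraries. The ratio of *Col3a1* to *Col1a1* was 1.3 in both groups and overlapped. No test was made on these ratios.

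**Figure D2:**
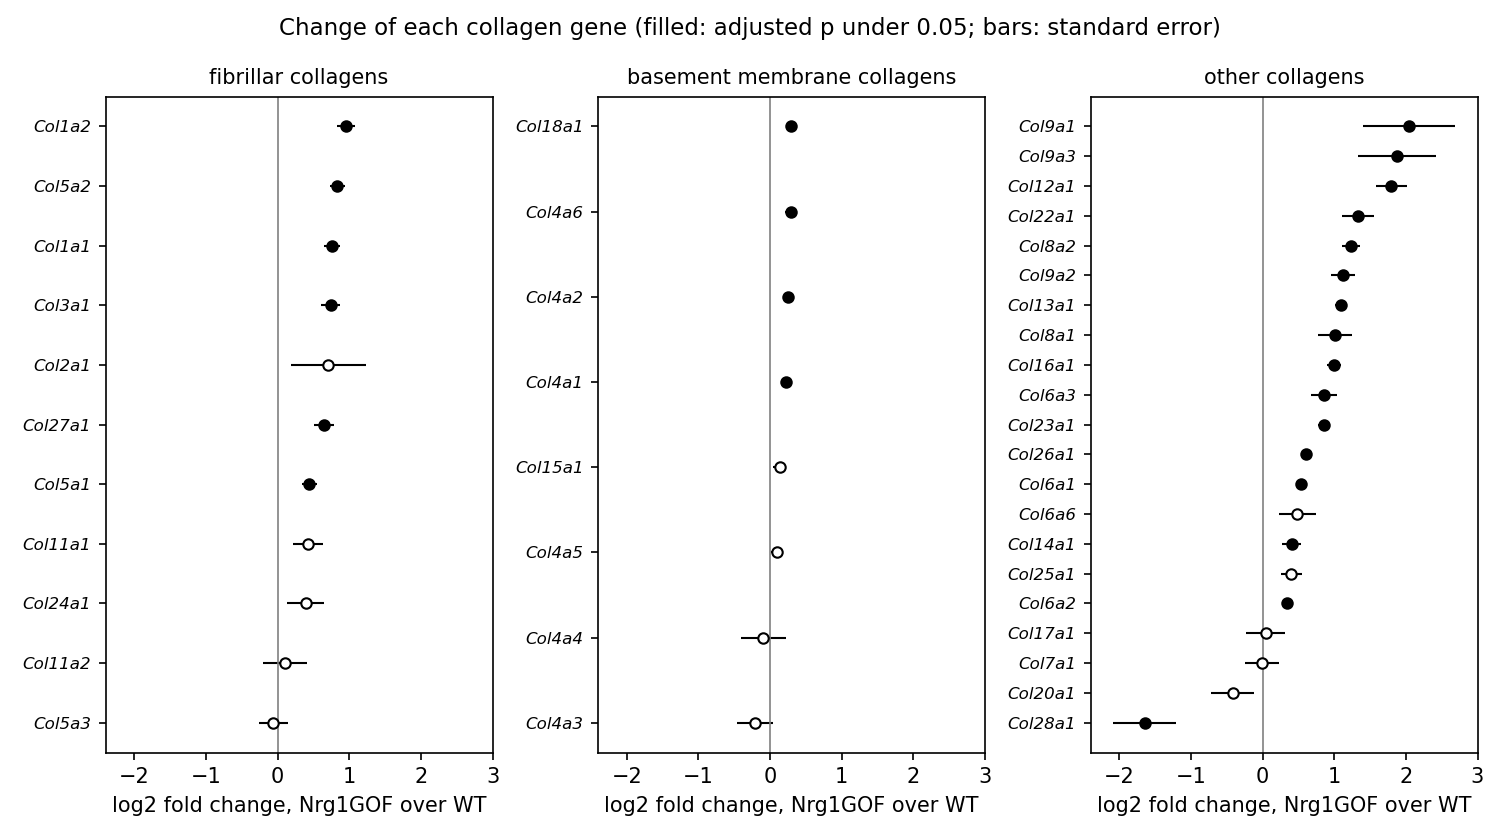
Log2 fold change of each collagen gene in *Nrg1GOF* over WT, by class, with the standard error as a bar; filled points have an adjusted p under 0.05 and open points do not. Fibrillar genes that rose lie between 0.44 and 0.96, basement membrane genes that rose between 0.23 and 0.29, and other collagens reach 2.04. The lowest point is *Col28a1*, which passed the count filter through WT alone, so its position and fill are not read as a fall.

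Among the basement membrane collagens, *Col4a1* and *Col4a2* encode the common type IV network of vessels and muscle. They lie head to head on chromosome 8, and their annotated first exons overlap by 22 bases, at chr8:11312805-11312826 on the plus strand of GRCm38. The stretch is printed because both genes start within or beside it. 
Col4a1 and Col4a2 overlap: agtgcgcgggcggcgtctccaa
The 22 bases contain gggcgg, the letters of the GC box. *Col4a1* was at 1871, 1841, 1686 and 1809.8 CPM in *Nrg1GOF* and at 1621, 1599.9, 1489.7 and 1449.6 CPM in WT. *Col4a2* was at 1097, 1090.2, 1043 and 1099.5 CPM and at 954, 948, 892 and 846 CPM. The groups did not overlap for either chain, but the gap was narrow beside that of type I collagen.

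*Col4a1* rose by 0.23 ± 0.059 on the log2 scale (SE; adjusted p = 0.0177) and *Col4a2* by 0.25 ± 0.056 (adjusted p = 0.00815). Their ratio per kilobase was 1.62 ± 0.0401 in *Nrg1GOF* and 1.65 ± 0.0177 in WT (SD, n = 4 each), and the groups overlapped. *Col18a1*, whose product carries the endostatin fragment at its end, rose from 405 ± 5.97 CPM to 497 ± 10.8 CPM (SD, n = 4 each; log2 fold change 0.29 ± 0.045 SE, adjusted p = 0.00104). It was the basement membrane gene with the closest replicates, and WT libraries 1 and 2 were 1.01-fold of WT libraries 3 and 4. *Col4a6* rose by 0.29 (adjusted p = 0.0213), from 33.8 to 43.6 CPM in WT to 46.4 to 49.7 CPM.

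The remaining basement membrane genes did not pass the test. *Col4a5*, the head-to-head neighbour of *Col4a6* on the X chromosome, had means of 289.9 and 272 CPM (adjusted p = 0.406), and *Col15a1*, the relative of *Col18a1*, 143 and 130.2 CPM (adjusted p = 0.298). *Col4a3* and *Col4a4*, the chains of specialised membranes such as that of the kidney glomerulus, start 71 bases apart on chromosome 1 and were low. Their means were 1.96 and 4.27 CPM in *Nrg1GOF* and 2.3 and 4.6 CPM in WT (adjusted p = 0.587 and 0.86), and *Col4a4* differed 2.33-fold between the WT pairs. Thus 4 of 8 basement membrane genes rose and none fell (15.8% and 12.6% of all genes), with a median log2 fold change of 0.18. This count fell to 1 with the atrial covariate (833 of all genes higher), to 1 against WT libraries 1 and 2 alone (1727), to 1 with each WT pair summed to 1 sample (1575) and to 2 without WT library 3 (1998). In the main fit 2452 of all 15562 genes were higher. *Col18a1* was called in each of these fits. With the fibroblast and epicardial covariate none of the 4 was called (adjusted p = 0.159 for *Col18a1*, edgeR), and the 1 basement membrane call was *Col4a4*, lower.

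Among the fibril-associated collagens, *Col12a1* and *Col14a1* encode related proteins that bridge fibrils. *Col12a1* (chr9:79598991-79718831) was at 174, 146, 142 and 133 CPM in *Nrg1GOF* and at 49.8, 60.1, 28.1 and 34 CPM in WT. It rose 3.48-fold, by 1.80 ± 0.21 on the log2 scale (SE; adjusted p = 0.000266). Even the lowest *Nrg1GOF* library was far above the highest WT library, although WT libraries 1 and 2 were 1.77-fold above WT libraries 3 and 4. *Col14a1* was at 158 to 183 CPM in *Nrg1GOF* and 103 to 153 CPM in WT and rose by 0.40 ± 0.13 on the log2 scale (SE; adjusted p = 0.0402). Its call was lost when any library other than WT library 1 or 2 was left out, with log2 fold changes that stayed positive, and also with the WT pairs summed or only WT libraries 1 and 2 as controls. Further losses came with the atrial covariate (log2 fold change 0.12, adjusted p = 0.724, edgeR) and with the fibroblast and epicardial covariate, where the value turned to −0.27. WT libraries 1 and 2 were 1.42-fold above WT libraries 3 and 4, more than the 1.32-fold difference between genotypes. The ratio of *Col12a1* to *Col14a1* per kilobase was 0.50 ± 0.0257 in *Nrg1GOF* and 0.188 ± 0.0293 in WT (SD, n = 4 each), with no overlap.

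*Col16a1*, found near elastic fibres and basement membranes, was at 114, 126, 145 and 112 CPM in *Nrg1GOF* and at 67.6, 69.4, 56.4 and 56.4 CPM in WT. It rose by 0.99 ± 0.10 (log2, SE; adjusted p = 0.000122). *Col22a1*, a collagen of tissue junctions such as that of muscle and tendon, was the least abundant member per kilobase in WT. Its level was 1.68, 1.81, 2.05 and 1.75 CPM against 0.649, 0.927, 0.687 and 0.655 CPM, a rise of 1.33 ± 0.22 (log2, SE; adjusted p = 0.00164) without overlap. *Col20a1* had means of 0.896 and 1.19 CPM and did not pass the test (adjusted p = 0.348).

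Types II, IX and XI are the collagens of cartilage, where type IX coats fibrils of types II and XI, and they are also made in the heart valves. *Col9a1* was at 10.7, 14.4, 22.0 and 5.13 CPM in *Nrg1GOF* and at 6.19, 4.52, 0.283 and 2.05 CPM in WT. *Col9a3* was at 9.12, 11.8, 23.1 and 3.50 CPM and at 4.85, 5.12, 1.13 and 2.33 CPM. *Col9a2* was at 25.0, 29.4, 34 and 28.5 CPM and at 16.4, 16.0, 11.9 and 9.54 CPM. *Col9a1* and *Col9a3* overlapped between the groups through *Nrg1GOF* library 4, while *Col9a2* did not overlap.

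*Col9a1* and *Col9a3* had the largest positive log2 fold changes among the 40, 2.04 ± 0.64 and 1.88 ± 0.55 (SE), with adjusted p = 0.0387 and 0.0292. *Col9a2* rose by 1.12 ± 0.17 (adjusted p = 0.000992). The calls of *Col9a1* and *Col9a3* were lost against WT libraries 1 and 2 alone, with the WT pairs summed and with the replicate number as a block (adjusted p = 0.0534 and 0.051, edgeR), and that of *Col9a1* with DESeq2 (adjusted p = 0.0619). With the atrial covariate both calls ended and both log2 fold changes turned negative, to −0.38 for *Col9a1* and −0.31 for *Col9a3*, and with the fibroblast and epicardial covariate they were at −1.33 and −0.69. That of *Col9a1* was also lost without any 1 of *Nrg1GOF* libraries 1, 2 and 3 or WT libraries 2 and 4, and that of *Col9a3* without any 1 of *Nrg1GOF* libraries 2 and 3 or WT libraries 3 and 4. *Col2a1* followed the same libraries, at 5.40, 8.24, 15.7 and 3.63 CPM in *Nrg1GOF* and 8.48, 7.47, 1.98 and 2.87 CPM in WT, and did not pass (log2 fold change 0.71 ± 0.52 SE, adjusted p = 0.352). *Col11a1* had means of 21.9 and 16.5 CPM (adjusted p = 0.165), with a 1.65-fold difference between the WT pairs, and *Col11a2* 1.85 and 1.76 CPM (adjusted p = 0.851).

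**Figure D3:**
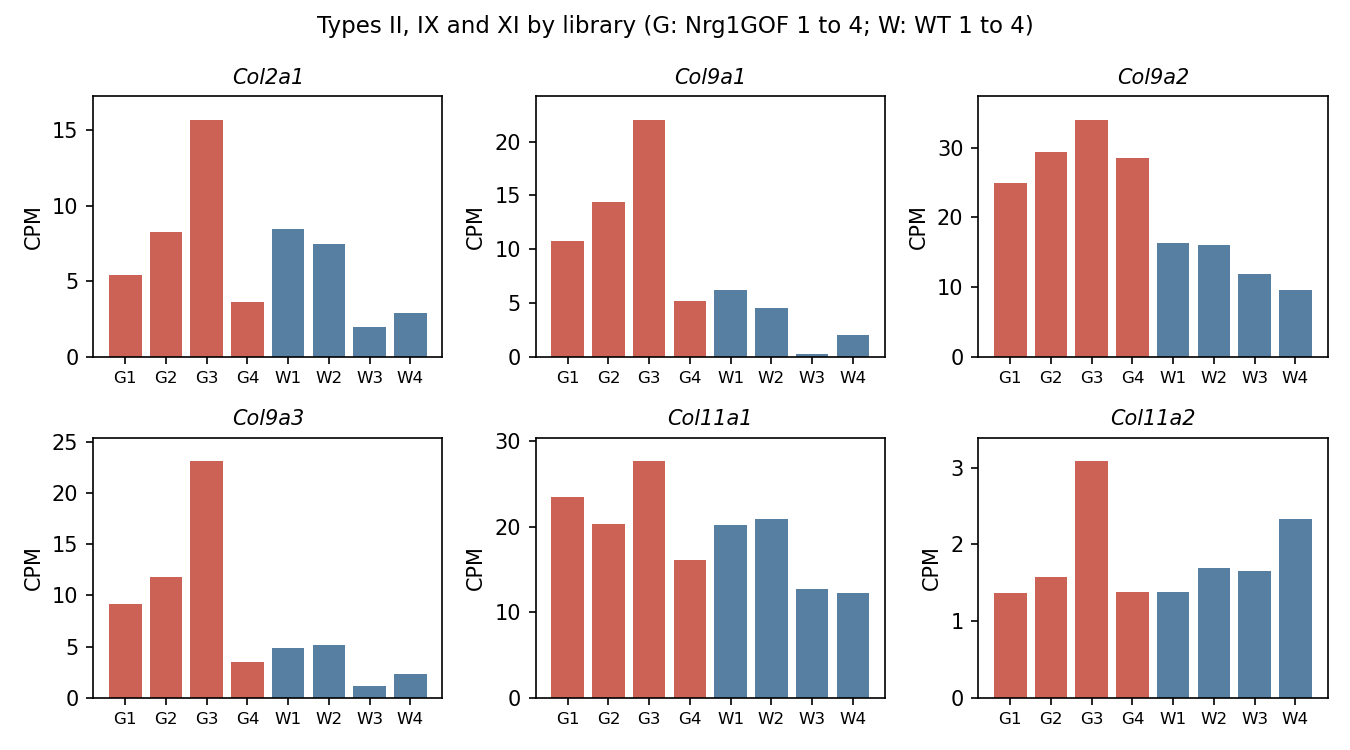
Level in CPM of the 6 genes of types II, IX and XI in each library, red bars for *Nrg1GOF* libraries 1 to 4 (G1 to G4) and blue bars for WT libraries 1 to 4 (W1 to W4). *Nrg1GOF* library 3 is the highest in every panel, and library 4 falls within the WT range in every panel other than that of *Col9a2*.

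Of 6 genes that mark cartilage, *Sox9*, *Hapln1* and *Comp* rose (75% of the 4 tested, against 15.8% of all genes), *Acan* did not pass the test, and *Matn1* (0 to 2 counts) and *Cnmd* (1 to 19 counts) were not tested. *Acan*, which encodes the main cartilage proteoglycan, had means of 1.49 and 1.59 CPM. The summed level of the 4 tested was 49.8 to 101 CPM in *Nrg1GOF*, highest in library 3 and lowest in library 4, and 20.4 to 33.3 CPM in WT. *Sox9* and *Hapln1* were both highest in library 3 (51.3 and 45.7 CPM) and *Hapln1* lowest in library 4 (14.3 CPM), whereas *Comp* was lowest in *Nrg1GOF* library 3 (2.48 CPM) and highest in library 4 (3.50 CPM). Their part in the rise of type IX was not tested.

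Type VI collagen forms fine beaded filaments around cells, and its main chains are encoded by *Col6a1*, *Col6a2* and *Col6a3*. *Col6a1* was at 293, 296, 321 and 264 CPM in *Nrg1GOF* and at 213, 200.2, 199 and 198 CPM in WT. *Col6a3* was at 181, 173, 199 and 152 CPM and at 114, 130.2, 68.6 and 78.6 CPM. *Col6a2* lay at 335 to 360.0 CPM and at 262 to 285 CPM. None of the 3 overlapped between the groups, and *Col6a1* varied little among the WT libraries.

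The log2 rise was 0.86 ± 0.19 for *Col6a3* (SE; adjusted p = 0.00716), 0.54 ± 0.064 for *Col6a1* (adjusted p = 0.000282) and 0.34 ± 0.052 for *Col6a2* (adjusted p = 0.00107). *Col6a1* and *Col6a2* lie 85161 bases apart on chromosome 10 on the same strand, and their ratio per kilobase was 1.02 ± 0.0554 in *Nrg1GOF* and 0.891 ± 0.0335 in WT (SD, n = 4 each), without overlap. *Col6a6*, an alternative to *Col6a3* in some tissues, had means of 56.0 and 40.3 CPM (adjusted p = 0.186), and its WT libraries 1 and 2 were 2.06-fold above WT libraries 3 and 4.

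The short-chain collagens *Col8a1* and *Col8a2* encode type VIII, which forms hexagonal lattices under endothelia. *Col8a2* was at 20.1, 22.7, 21.4 and 19.0 CPM in *Nrg1GOF* and 9.82, 10.6, 7.52 and 7.66 CPM in WT. *Col8a1* was at 14.9, 14.9, 19.0 and 13.8 CPM and at 10.5, 10.1, 4.93 and 5.73 CPM. Both rose without overlap, *Col8a2* by 1.23 ± 0.12 (log2, SE; adjusted p = 0.000113) and *Col8a1* by 1.01 ± 0.24 (adjusted p = 0.0111). The WT pairs differed 1.94-fold in *Col8a1*, whose call was lost with the atrial covariate (log2 fold change 0.27, adjusted p = 0.474, edgeR) and whose value turned to −0.36 with the fibroblast and epicardial covariate.

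*Col13a1* and *Col23a1* encode collagens anchored in the cell membrane, and type XIII is known from neuromuscular junctions and cell contacts. *Col13a1* was at 20.3, 22.5, 23.7 and 24.4 CPM in *Nrg1GOF* and at 10.9, 11, 9.70 and 10.9 CPM in WT. *Col23a1* was at 60.5, 62.8, 56.4 and 74.6 CPM and at 35.5, 34.4, 35.7 and 34.4 CPM. Unlike most members, neither showed the division of the WT libraries, and in both *Nrg1GOF* library 4 stood highest.

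*Col13a1* rose 2.14-fold (log2 1.09 ± 0.084 SE, adjusted p = 3.05e-05) and *Col23a1* 1.81-fold (log2 0.85 ± 0.080 SE, adjusted p = 7.87e-05), the smallest adjusted p values among the collagen genes. Of the other membrane collagens, *Col25a1* had means of 6.06 and 4.59 CPM (adjusted p = 0.066), with *Nrg1GOF* library 3 at 4.75 CPM inside the WT range. *Col17a1*, of the hemidesmosomes of skin, had means of 0.992 and 0.936 CPM (adjusted p = 0.995).

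The last 3 members fell into no larger family. *Col26a1* rose by 0.61 ± 0.081 (log2, SE; adjusted p = 0.000508), from 23.1 to 29.3 CPM in WT to 37.9 to 42.0 CPM. *Col7a1*, of the anchoring fibrils of skin, had means of 3.94 and 3.96 CPM (adjusted p = 0.992). *Col28a1*, known from the surroundings of Schwann cells, was the only collagen gene called lower. It had 9, 7, 7 and 0 counts in *Nrg1GOF* and 29, 22, 16 and 21 counts in WT.

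It passed the count filter through WT alone, where it is high, so no fold or p is given for it. The library with 0 counts was the shallowest, where 3 counts correspond to 0.373 CPM. The call was lost with the fibroblast and epicardial covariate, against WT libraries 3 and 4 alone and with the WT pairs summed.

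Across the classes, the largest transcript levels and the largest changes fell on different genes. Summed per kilobase, the 11 fibrillar genes stood at 1268, 1324, 1477 and 1211 CPM per kb in *Nrg1GOF* and at 887, 880.2, 662 and 646 CPM per kb in WT, a ratio of means of 1.72. The 8 basement membrane genes stood at 609 ± 16.7 and 519.8 ± 26.5 CPM per kb (ratio 1.17) and the 21 others at 289 ± 17.7 and 186 ± 18.8 CPM per kb (ratio 1.56; SD, n = 4 each). No class overlapped between the groups. Fibrillar genes held 59.4% ± 1.99 of the collagen level per kb in *Nrg1GOF* and 51.9% ± 2.77 in WT, basement membrane genes 27.5% ± 2.08 and 35.5% ± 2.53, and the others 13.0% ± 0.140 and 12.6% ± 0.299 (SD, n = 4 each). The ratio of fibrillar to basement membrane level was 2.17 ± 0.249 and 1.47 ± 0.183, and was higher in WT libraries 1 and 2 (both 1.63) than in WT libraries 3 and 4 (1.31 and 1.32). No test was made on these sums, and a difference in change between classes was not tested.

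**Figure D4:**
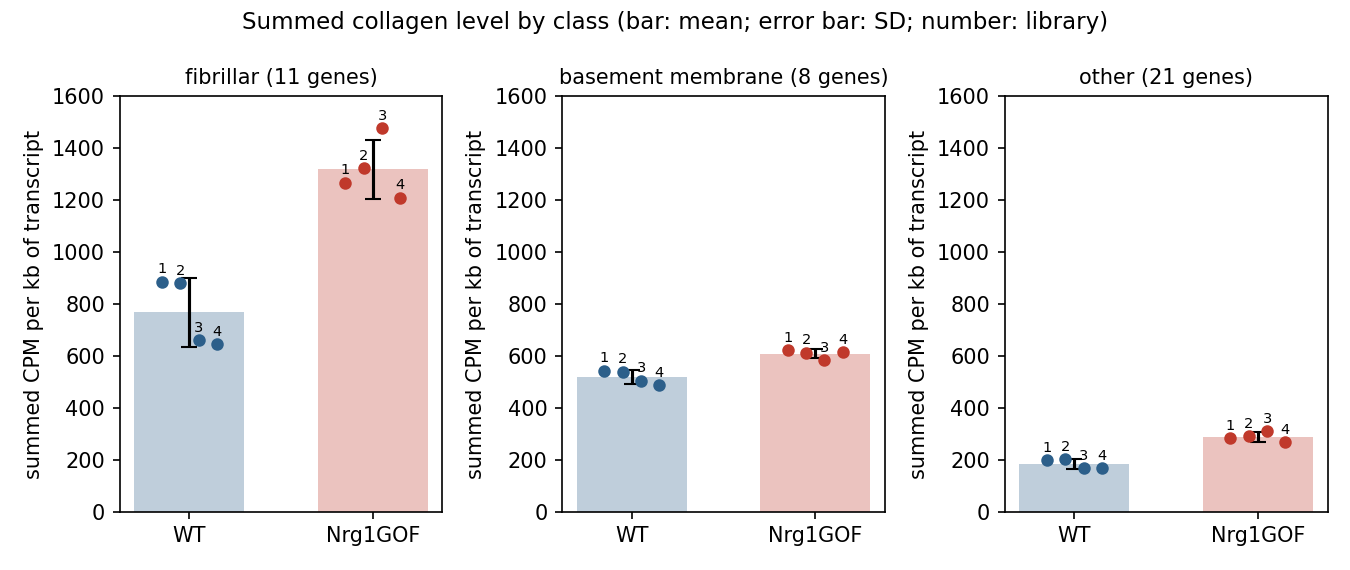
Summed level per kilobase of transcript for the fibrillar, basement membrane and other collagens; bars are means, error bars SD over 4 libraries, and each point is 1 library with its number. Fibrillar genes go from 769 in WT to 1320 in *Nrg1GOF*, basement membrane genes from 519.8 to 609, and WT libraries 1 and 2 lie above WT libraries 3 and 4 in all 3 panels.

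In order of level per kilobase, WT ventricles were led by *Col3a1* (283 ± 55.2 CPM per kb), *Col4a1* (233 ± 12.6), *Col1a1* (216 ± 29.5), *Col1a2* (166 ± 32.1) and *Col4a2* (141 ± 7.96; SD, n = 4 each). The ranges of mean ± SD of neighbours in this order overlapped, and only *Col4a2* stood clear of the next gene, *Col18a1* (72.4 ± 1.07). In *Nrg1GOF* the order was *Col3a1* (474 ± 42.0), *Col1a1* (366 ± 44.9), *Col1a2* (322 ± 23.7), *Col4a1* (272 ± 12.3) and *Col4a2* (168 ± 4.08), so *Col4a1* moved from rank 2 to rank 4. *Col12a1* moved from rank 21 to rank 17. Among the 24 members with a WT mean of at least 10 CPM, 20 rose (14.8% of all genes at that level), and among the 16 below it 5 rose (17.5% of all genes there). The log2 WT level and the log2 fold change had a Pearson r of 0.13 across the 40 genes, which share libraries and are not independent.

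The proteins that make, trim and bind collagen were looked at next. Of 18 genes for the folding and modification of collagen chains in the endoplasmic reticulum, 14 rose and none fell (15.8% and 12.6% of all genes), with a median log2 fold change of 0.48. The largest rises were those of *P3h2*, a prolyl 3-hydroxylase (0.95 ± 0.077 SE), *Fkbp10*, a collagen chaperone (0.83 ± 0.048), and *P4ha1*, a catalytic subunit of prolyl 4-hydroxylase (0.81 ± 0.061). The smallest that passed were *Mia3*, needed to export large collagens from the reticulum (0.20 ± 0.064), *Ppib*, a prolyl isomerase (0.30 ± 0.050), and *Colgalt1*, which adds galactose to hydroxylysine (0.44 ± 0.043). *Serpinh1*, the collagen chaperone HSP47, went from 641 ± 18.1 to 888 ± 58.8 CPM (SD, n = 4 each).

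Of 12 tested genes for trimming of procollagen and crosslinking of fibres, 8 rose, beside the same 15.8% of all genes. *Adamts2*, which removes the amino-terminal propeptide, rose by 1.13 ± 0.22 (log2, SE), and the crosslinking oxidases *Loxl1* and *Lox* by 1.06 ± 0.13 and 0.96 ± 0.14. *Adamts3* fell by 0.47 on the log2 scale. *Tll2*, of the family that removes the carboxy-terminal propeptide, was at 6, 2, 2 and 1 counts in *Nrg1GOF* and at 14, 19, 36 and 22 counts in WT. *Tll2* passed the count filter through WT alone, and 3 of its *Nrg1GOF* libraries lay under the limit of 3 counts, so its fold is not given and it is not counted as a fall. *Bmp1*, of the same family as *Tll2*, rose by 0.40 ± 0.11, the smallest rise in the list. *Pcolce2* and *Loxl4* did not pass the count filter. Over both lists of folding and processing genes, 24 were called in the main fit, *Tll2* included. With the fibroblast and epicardial covariate 7 were called (4.23% of all genes).

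Of 8 genes for proteins that organise fibrils, 7 rose (87.5%, against 15.8% of all genes): *Tnxb* by 1.52 ± 0.25, the proteoglycan genes *Bgn* and *Lum* by 1.35 ± 0.15 and 1.31 ± 0.22, *Fn1* by 0.66 ± 0.12, *Dcn* by 0.63 ± 0.11 and *Sparc* by 0.56 ± 0.056 (log2, SE), along with *Postn*. Of 9 collagen receptors 4 rose and 1 fell, so that 55.6% were called, against 28.3% of all genes. The endocytic receptor *Mrc2* rose by 0.97 ± 0.11, *Lair1* by 0.88 ± 0.24, the discoidin domain receptor *Ddr2* by 0.60 ± 0.17 and the shared integrin subunit *Itgb1* by 0.42 ± 0.078, while *Ddr1* fell by 0.35 on the same scale. Of 8 tested turnover genes 6 rose (75% called, against the same 28.3%), among them the gelatinase *Mmp2* (1.07 ± 0.096), the inhibitors *Timp1* (0.82 ± 0.12), *Timp3* (0.69 ± 0.050) and *Timp2* (0.32 ± 0.063), *Mmp14* (0.58 ± 0.080) and *Ctsk* (0.49 ± 0.097). *Mmp8*, *Mmp9* and *Mmp13* did not pass the count filter. Over these organiser, receptor and turnover genes 18 were called in the main fit. With the atrial covariate 8 were called (8.65% of all genes), and with the fibroblast and epicardial covariate 2 (4.23% of all genes). Each gene said here to have risen or fallen had an adjusted p under 0.05 by edgeR, and the lists were drawn up with earlier results of these data known.

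Markers of the cells that could supply collagen moved too. Of 8 fibroblast and epicardial markers, 6 rose and *Tbx18* fell, and *Aldh1a2* did not pass (87.5% called, against 28.3% of all genes). *Pdgfra* went from 55.4 to 86.8 CPM in WT to 124 to 161 CPM, and *Tcf21* from 21.9 to 27.2 CPM to 53.6 to 62.0 CPM. The summed level of the list was 464 to 552 CPM in *Nrg1GOF* and 242 to 335 CPM in WT, a ratio of means of 1.75 beside 1.70 for the summed CPM of the fibrillar collagens, and WT libraries 1 and 2 were above WT libraries 3 and 4 in both. Macrophage markers went from 46.5 to 55.4 CPM in WT to 87.3 to 102 CPM (6 of 6 rose, against 15.8% of all genes), and cardiomyocyte markers from 44097 to 45236 CPM to 35017 to 42001 CPM (3 of 8 fell, 37.5%, against 12.6% of all genes), in neither case with overlap between the summed levels of the groups. Of the cardiomyocyte markers *Myh7* went from a WT mean of 17596 CPM to 12624 CPM. In 2 of the 8 the log2 fold change was positive, *Myh6* (2828 to 4035 CPM) and *Actc1* (10387 to 10408 CPM), and neither passed the test. The summed mural markers overlapped between the groups. The endothelial sum did so through *Nrg1GOF* library 3 alone (1310.8 CPM, against 1311.1 CPM in WT library 3). Single members of both lists moved in both directions, where 15.8% of all genes rose and 12.6% fell. Of 8 endothelial markers 4 rose and 1 fell (*Emcn* by 0.68, *Fabp4* at −0.49 on the log2 scale), and of 7 mural markers 2 rose and 2 fell (*Pdgfrb* by 0.30, *Rgs5* at −0.59). The summed red blood cell markers overlapped as well, and none of the 6 passed the test.

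When the mean log2 level of the 8 fibroblast and epicardial markers was added to the fit, 4 collagen genes were called (4.23% of all genes), *Col13a1* and *Col23a1* higher (1.84% of all genes) and *Col6a6* and *Col4a4* lower in *Nrg1GOF* (2.39% of all genes). That mean itself did not overlap between the groups (5.69 to 5.80 against 4.71 to 5.25), so that its effect and that of genotype cannot be told apart. Of 5 atrial genes 2 rose and none fell (15.8% and 12.6% of all genes), *Myl7* by 1.24 and *Myl4* by 0.61 on the log2 scale, both without overlap between the groups. Their summed level was 1563 to 1740 CPM in *Nrg1GOF* and 965 to 1090 CPM in WT, a ratio of means of 1.63, also without overlap. With the mean of their log2 levels as a covariate, which overlapped between the groups (5.22 to 6.08 against 4.12 to 5.31), 11 collagen genes were called (8.65% of all genes). Those higher were *Col1a2*, *Col5a2*, *Col6a1*, *Col8a2*, *Col12a1*, *Col13a1*, *Col16a1*, *Col18a1*, *Col23a1* and *Col26a1*, and *Col28a1* was lower (3.3% of all genes). The part of a changed cell composition in the collagen levels was not tested.

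**Figure D5:**
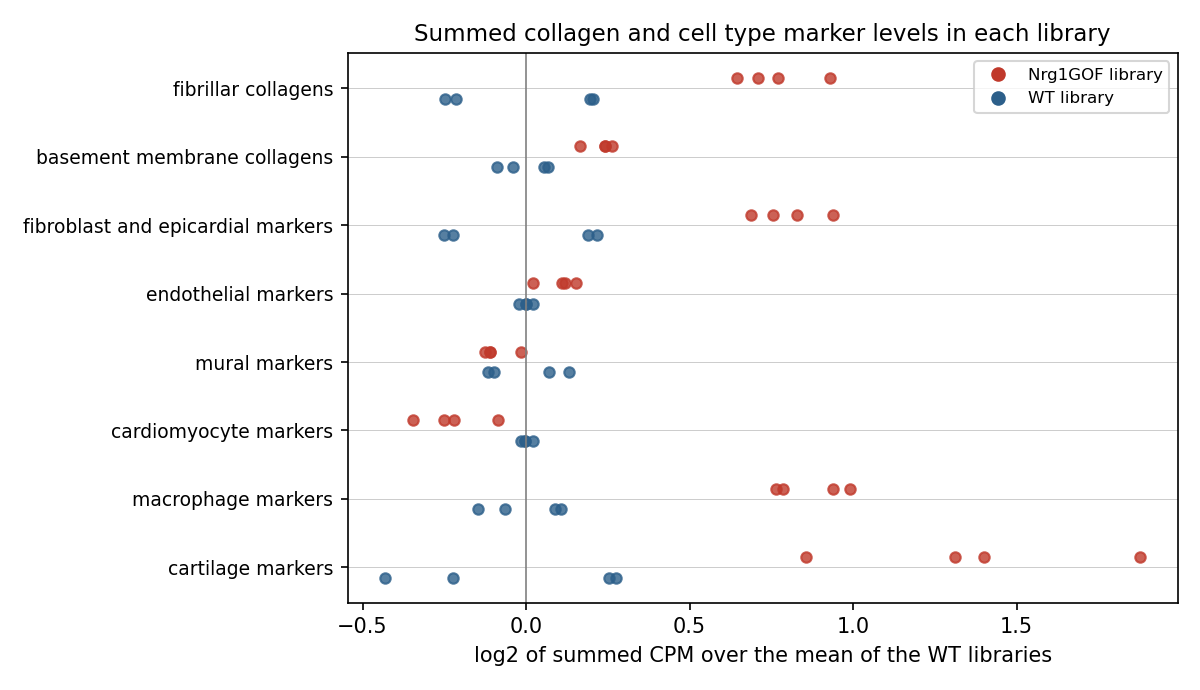
Summed CPM of the fibrillar and basement membrane collagens and of 6 marker lists in each library, as log2 over the mean of the WT libraries, with red points for *Nrg1GOF* and blue for WT. Fibrillar collagens and fibroblast and epicardial markers occupy nearly the same range as each other within each group, although *Tbx18* of the latter list fell. The sums of endothelial and mural markers, whose members also moved both ways, overlap between the groups. The endothelial overlap is narrow and comes from *Nrg1GOF* library 3 alone (1310.8 CPM, against 1311.1 CPM in WT library 3).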

How the data were processed

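Poly(A) RNA of 4 *Nrg1GOF* and 4 WT ventricle samples was sequenced from directional libraries with single reads of 60 bases. The authors deposited expected counts per gene from RSEM (1.3.1, with cutadapt, according to the submitters' processing notes) on GRCm38 with Ensembl release 91, as the name of the table states. The aligner and the strand setting of the counting are not given in the sources used here. Expected counts divide reads that fit several genes between them, and 31 of the 40 collagen genes had whole values in all libraries. The exons of 8 collagen genes overlap a gene on the opposite strand, for example 234 bases of *Col9a3* shared with *Tcfl5* (mean of 7.63 counts). Those of 3 overlap a gene on the same strand. Among them are 141 bases of *Col3a1* shared with *Gm47302* (mean of 21.6 counts) and 79 bases of *Col20a1* shared with *BX649560.1* (mean of 130 counts). Reads of such stretches cannot be assigned with certainty.

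Counts were rounded, and all genes with at least 10 counts in at least 4 of 8 libraries were tested in 1 fit with edgeR (4.0.16, R 4.3.3; quasi-likelihood F-test), TMM scaling and no term other than genotype. P values were two-sided and adjusted by the Benjamini-Hochberg method over 15562 genes, with a threshold of 0.05. CPM (counts-per-million) refer to library sizes after TMM scaling, and levels per kb divide them by the longest GENCODE M21 transcript. The SE was obtained from each log2 fold change and the root of its F statistic. The test was run on simulated counts beforehand. Replicates were numbered by the titles, and p-values set the difference between genotypes against the spread within the 2 groups of 4 samples. The lowest level a library could show, taken as 3 counts, was 0.112 to 0.373 CPM, and since the reads had no molecular identifiers this limit reflects counting error alone.

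Every collagen gene that passed the filter is named, those with the largest changes (up to 12) with each library, and of the pathway lists the called genes with the 3 highest and 3 lowest log2 fold changes; *Serpinh1*, *Postn*, *Pdgfra* and *Tcf21* and the other marker genes were added. Members and lists were chosen with earlier results of these data known. Alternatives were other scalings, filters and tests (DESeq2 1.42.0, limma-voom 3.58.1, the likelihood ratio test), unrounded counts, a replicate block, covariates, WT pairs summed or alone, type IV alone as the basement membrane class, a minimum fold change and leaving out each library. The covariate of fibroblast and epicardial markers was chosen after seeing the data.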

Additional observations from a re-analysis of the deposited data

Results flagged for a closer look

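In 6 of 86 groups of 4 values (40 collagen genes and 3 class sums, each in both genotypes), 1 library stood apart from the others by more than the 95% critical value of Dixon's test, where chance gives about 1 in 20 groups, or 4.3. In *Nrg1GOF*, library 3 was the highest for *Col4a3* (2.65 CPM, the others 1.68 to 1.76) and for *Col11a2* (3.08 CPM, the others 1.36 to 1.57), and the lowest for *Col4a2* (1043 CPM, the others 1090 to 1100). In WT, library 1 was the highest for *Col6a1* (213 CPM, the others 198 to 200), library 3 the lowest for *Col13a1* (9.7 CPM, the others 10.9 to 11) and library 2 the highest for *Col22a1* (0.927 CPM, the others 0.649 to 0.687). *Col4a2*, *Col6a1*, *Col13a1* and *Col22a1* remained called without the library in question, and *Col4a3* and *Col11a2* passed the test neither with nor without it.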

How the results depend on the processing

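Over 25 alternative settings, counts of called collagen genes mostly stayed within 1.5 times the main value, and of 998 log2 fold changes of single collagen genes 870 kept their direction and side of the threshold, 68 were no longer called, 7 became called and 53 changed sign. *Col13a1* and *Col23a1* were called in each fit, although *Col23a1* (log2 fold change 0.85) did not reach the minimum log2 fold change of 1. With equal replicate numbers, samples of both genotypes correlated at 0.0504 to 0.2 in their deviations from the group means, and not every sample correlated best with its own number, so the numbers were not taken to pair them. With the replicate block 24 collagen genes were called (23 higher, 1 lower), 6 fibrillar, 4 basement membrane and 14 other, against 4466 of all genes. The 1 lower was *Col28a1*, which passed the count filter through WT alone.

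The atrial covariate left 11 collagen genes called (10 higher; 2 fibrillar, 1 basement membrane, 8 other), 8 organiser, receptor and turnover genes and 1346 of all genes against 4406. The fibroblast and epicardial covariate left 4 (2 higher, 2 lower; 0 fibrillar, 1 basement membrane, 3 other), 7 folding and processing genes, 2 organiser, receptor and turnover genes and 658 of all genes. A minimum log2 fold change of 1 left 9 (8 higher; 0 fibrillar, 0 basement membrane, 9 other), 3 folding and processing genes, 4 organiser, receptor and turnover genes and 694 of all genes. The 11 and the 9 include *Col28a1*, called lower, which passed the count filter through WT alone. The count of lower collagen genes was 0 with a filter at a mean of 1 CPM (which removed *Col28a1*), with WT pairs summed and against WT libraries 3 and 4 alone, and the basement membrane count was 1 with WT pairs summed and against WT libraries 1 and 2 alone. With WT pairs summed 2482 of all genes were called, against WT libraries 1 and 2 alone 3017 and against WT libraries 3 and 4 alone 4477. Without 1 library each, the basement membrane count ranged from 2 (without WT replicate 3, where 3454 of all genes were called) to 4. The count over all genes ranged from 3221 to 4208 in these fits. The cause of these differences was not tested.

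The sign changes concerned mostly genes near 0. *Col7a1* turned to 0.04 with the library total as scaling, 0.0089 with the filter at 1 CPM, 0.012 with limma-voom, 0.005 with the block, 0.0021 with Y-linked genes as covariate, 0.36 and 0.85 with the atrial and fibroblast covariates, 0.0085 with WT pairs summed, 0.35 against WT libraries 1 and 2 alone, and between −0.18 (without *Nrg1GOF* library 3) and 0.18 (without WT library 3) without 1 library. *Col4a4* turned to 0.054 with limma-voom, 0.64 against WT libraries 3 and 4 alone and lay between −0.29 (without WT library 3) and 0.17 (without WT library 2) without 1 library. *Col11a2* turned to −0.0075 with Y-linked genes, −0.12 with the atrial covariate, −0.064 against WT libraries 3 and 4, and lay between −0.28 (without *Nrg1GOF* library 3) and 0.26 (without WT library 4) without 1 library. *Col5a3* turned to 0.21 against WT libraries 3 and 4 and lay between −0.14 (without WT library 3) and 0.035 (without WT library 1) without 1 library, and *Col4a3* turned to 0.16 against WT libraries 3 and 4. *Col17a1* turned to −0.056 against WT libraries 1 and 2, −0.13 with the fibroblast covariate, and lay between −0.11 (without WT library 4) and 0.15 (without WT library 3) without 1 library. With the atrial covariate *Col2a1* was at −1.22, *Col9a1* at −0.38, *Col9a3* at −0.31, *Col11a1* at −0.23, *Col24a1* at −0.43, *Col15a1* at −0.059 and *Col6a6* at −0.32. With the fibroblast covariate *Col14a1* was at −0.27, *Col2a1* at −1.96, *Col9a1* at −1.33, *Col5a1* at −0.13, *Col9a3* at −0.69, *Col11a1* at −0.64, *Col24a1* at −0.51, *Col15a1* at −0.19, *Col4a6* at −0.078, *Col4a5* at −0.076, *Col6a6* at −0.98, *Col6a3* at −0.20 and *Col8a1* at −0.36. The part of depth in these results was not tested, and *Nrg1GOF* library 4 was the shallowest.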
